A study of Mus musculus with 1931 samples.

Results

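Among the visceral endoderm (VE)-like cells of mouse embryo-like structures, some contain transcripts of *Nodal* or of its inhibitor *Lefty1*. Wells of plates 3, 4 and 5 were taken when at least 2500 genes were above 0 TPM, when *Amn* and *Cubn*, which encode the 2 parts of the VE receptor cubam, were both above 0, and when the well number lay between 9 and 24. Of 1149 wells of the structures, and of 1931 in the whole series, 90 met these conditions with *Nodal* or *Lefty1* above 0 TPM and are called Nodal/Lefty1 wells here. They lay on plates 3 (33), 4 (31) and 5 (26). The wells of the same selection in which both genes were at 0, which numbered 77, 79 and 68 on these plates, served for comparison. The cells were thus selected on measured values of *Nodal*, *Lefty1*, *Amn* and *Cubn*, and these genes are described but support no finding.

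The structures, named RtL-embryoids after the rosette-to-lumen stage they resemble, were built from 3 mouse embryonic stem cell (ESC) lines. Kermit ESCs carry GFP under *Oct3/4* control, 5-Factor ESCs carry *Eomes*, *Gata3*, *Cdx2*, *Ets2* and *Tfap2c* as transgenes switched on by doxycycline (DOX), and mCherry-transduced iGATA6 ESCs, from which the VE-like cells derive, carry a DOX-driven *Gata6* transgene. DOX was given to all at 2 µg/ml and withdrawn a day before harvest. Structures were picked by hand for correct assembly, pooled, dissociated, sorted as single cells by GFP, mCherry and the surface protein CD40, and sequenced by SMART-seq2. Both groups of wells therefore come from the same pool, lines and treatment, and differ by their content of 2 transcripts. The 3 plates are technical splits of that pool, which counts as 1 sample, so that no test between the groups was possible and none was made. Each difference is instead given with its size on each plate.

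Nodal is a secreted ligand of the TGF-beta family that signals through activin receptors, Smad proteins and FoxH1, and it induces its own inhibitors Lefty1 and Lefty2. In the mouse embryo the distal and later the anterior visceral endoderm (AVE), a group of VE cells overlying the epiblast, express Lefty1 together with Cer1 and the Wnt inhibitor Dkk1. From there they limit Nodal and Wnt signalling in the epiblast and so help to place the head-to-tail axis. The other VE cells take up and secrete nutrients, and parietal endoderm, which lines the outer wall of the conceptus, lays down a thick basement membrane.

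The 3 plates held like shares of Nodal/Lefty1 wells. They made up 30%, 28.2% and 27.7% of the selected wells of plates 3, 4 and 5, and 28.7% in all (exact 95% confidence interval 23.7% to 34.01%, Clopper-Pearson; all intervals here cover counting error only). The share differed more by position on the plate. In wells 9 to 16, where nearly all wells with *Amn* and *Cubn* lay, 76 wells, or 25.6% of those selected, were Nodal/Lefty1 wells (95% CI 20.7% to 30.9%). In wells 17 to 24, 14 of 17 were (82.4%, 95% CI 56.6% to 96.2%), namely 4 of 4 on plate 3, 7 of 9 on plate 4 and 3 of 4 on plate 5. The other kept wells in that position, called outside wells here, had the extraembryonic ectoderm (ExE) marker *Cdx2* in 64.6%. Because 14 Nodal/Lefty1 wells but only 3 comparison wells lay there, results are given with and without wells 17 to 24.

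The values are transcript abundances corrected for transcript length and library size (TPM), scaled per well to a sum of 10000 and called TP10k below, and a difference between groups is that of the mean ln(TP10k + 1). TPM keep no read number, so the number of genes above 0 stands for depth. Its median was 5446.5 in the Nodal/Lefty1 wells (2816 to 8029) and 5295 in the others (2504 to 8233). Plate 3 was deeper than the other plates in both groups, with medians of 6735 and 6622 genes against 5102 and 4871 on plate 4 and 5149 and 4948 on plate 5. Within each plate the Nodal/Lefty1 wells had slightly more genes, and weakly expressed genes are found more easily where more genes are found.

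The rule was met by a wide range of levels. *Nodal* (chromosome 10, 61417972 to 61425338, GRCm38, positions from Gencode vM21) was found in 71 of the 90 wells and *Lefty1* (chromosome 1, 180935022 to 180938400) in 53. Where found, *Nodal* reached 0.4402 TP10k in the median and 2.15 at most, and *Lefty1* 0.712 and 12.4. The lowest values just inside the rule were 1.79 and 2.52 TPM for *Nodal* and 6.14 and 6.30 TPM for *Lefty1*, and none lay below 1 TPM. Of the wells just outside, 49 had only 1 of *Amn* and *Cubn*, 5 of them with *Nodal* or *Lefty1*, and 7 wells had both but fewer than 2500 genes (at most 2420). Both genes were found together in 34 wells, *Nodal* alone in 37 and *Lefty1* alone in 19. *Lefty1* was thus present in 47.9% of the 71 wells with *Nodal* and in 7.82% of the selected wells without it. In the outside wells, with a median of 5400 genes, *Nodal* was found in 6.55% and *Lefty1* in 3.87%. In the kept wells 1 to 8, which carry epiblast (Epi) markers, these shares were 56.4% and 59.9% at a median of 4823 genes.

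The label VE-like was checked on the other VE markers. In the Nodal/Lefty1 wells *Lrp2* and *Dab2* were found in 100% of wells, *Gata4* in 97.8%, *Sox17* in 82.2% and *Dkk1* in 74.4%. Among AVE genes, *Hhex* was found in 58.9% and *Lhx1* in 22.2%, but *Cer1* in only 3 of 90 wells (3.33%) and *Otx2* in 1 of 90 (1.11%). The cells are therefore called VE-like and not AVE-like. Parietal endoderm markers were present as well, with *Sparc* and *Col4a1* in every Nodal/Lefty1 well, and *Thbd* in 1.11%.

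Epi cells express *Nodal* and *Lefty1* themselves, so Epi transcripts were counted beside the results. Of 7 Epi markers (*Pou5f1*, *Nanog*, *Tdgf1*, *Gdf3*, *Sox2*, *Fgf4* and *Utf1*), a median of 2 was found per well in both groups, against 7 in wells 1 to 8. At least 3 were found in 25.6% of Nodal/Lefty1 wells and 21.4% of the others. *Tdgf1*, the Nodal coreceptor found in 95.5% of wells 1 to 8, appeared in 2 of 90 Nodal/Lefty1 wells and in no comparison well. For a gene found in no well, 3 divided by the number of wells gives an approximate upper limit of the share, here 1.34%. *Fgf4*, found in 86.6% of wells 1 to 8, was at 0 in every selected well, where that limit is 3.33% for the Nodal/Lefty1 wells. These limits are not the exact intervals given elsewhere. The summed level of 12 Epi genes had a median of 58.7 TP10k in the Nodal/Lefty1 wells (5.60 to 143.3) and 84.6 in the others (quartiles 64.7 and 104.96, lowest 0). For 10 ExE genes the sums ranged from 0 to 6.23 and from 0 to 25.1, with means of 0.769 and 0.566. Without wells that held 3 or more of the 7 Epi markers, the counts given below for cholesterol and parietal endoderm genes were 20 and 8. In that setting 6.58% of all genes were called higher and 6.74% lower. Wells with fewer of these markers remained, so the part of Epi transcripts in these and other results was not tested.

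Across the transcriptome, 8251 genes were found in at least 25% of the wells of either group. A gene was called higher when its mean TP10k was at least 1.5 times that of the other group and its mean ln(TP10k + 1) was higher on each of plates 3, 4 and 5, and lower in the reverse case. By this rule of size 5.27% of these genes were higher in the Nodal/Lefty1 wells and 5.45% lower. In wells 9 to 16 alone, with 8272 genes compared, it gave 4.64% and 5.05%. A gene that reached 25% of wells in only 1 group had to differ between them, so such genes are named as such and lend a count no weight. The median difference over all genes was 0.01.

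The largest increase was that of *Hmgb3*, a chromatin protein of the high mobility group known from stem and progenitor cells. It averaged 2.10, 3.05 and 3.58 TP10k on plates 3, 4 and 5 in the Nodal/Lefty1 wells and 0.700, 0.655 and 0.802 in the others. Single wells ran from 0 through a median of 2.27 to 9.12, against 0, 0.175 and 5.95. Transcripts were found in 91.1% of the Nodal/Lefty1 wells (95% CI 83.2% to 96.1%) and in 54.5% of the others (47.7% to 61.1%), a 3.99-fold difference of the means, and both groups included wells at 0. *Eml1*, a microtubule-associated protein, followed the same course with 2.21 against 0.551 TP10k, a 4.02-fold difference. Its plate means were 1.89, 2.25 and 2.58 against 0.557, 0.533 and 0.564, and it stood at 0.0138 TP10k in the outside wells.

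The other genes of the 12 with the largest increases fall into a few kinds. *Msmo1*, *Fdps* and *Acat2* are enzymes of cholesterol synthesis. *Cldn6* and *Cldn7* encode claudins of tight junctions, at 8.90 against 4.08 and 3.35 against 1.21 TP10k. *Slc7a7*, a transporter of basic amino acids found in absorptive epithelia, averaged 2.62 against 0.926 TP10k, and *Ctsc*, a lysosomal protease, 7.64 against 3.93. *Cited1*, a transcriptional coregulator, averaged 6.08 against 2.89 TP10k, but 10.4 against 11.2 in wells 17 to 24. *Car4*, a carbonic anhydrase anchored in the outer cell membrane, reached 10.8, 10.8 and 9.85 TP10k on the plates against 4.80, 5.98 and 6.25, with wells from 0 through 8.88 to 44.4 against 0, 3.54 and 60.4. *Utf1*, a chromatin factor of pluripotent cells, averaged 3.00 against 1.36 TP10k and was the only Epi marker of the 12.

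Among the 12 largest decreases, *Spp1*, which encodes the secreted matrix protein osteopontin, came first. It averaged 3.11, 1.95 and 2.29 TP10k on plates 3, 4 and 5 in the Nodal/Lefty1 wells and 7.51, 7.88 and 10.5 in the others, a 3.46-fold lower mean. Transcripts were found in 48.9% of the Nodal/Lefty1 wells (95% CI 38.2% to 59.7%) and 78.1% of the others (72.1% to 83.4%). *P4ha2*, a collagen prolyl hydroxylase, averaged 1.99 against 4.69 TP10k, *Lamc1* and *Lama1*, chains of laminin, 5.63 against 10.2 and 1.96 against 3.51, and *Tmsb10*, an actin-binding peptide, 13.3 against 23.2. *Glipr2*, *Sat1*, *2210409E12Rik*, *Pdlim4*, *S100a11* and *Sdc4* were also lower, as was *Pou5f1*, described below with the Epi genes. The 6 genes other than *Pou5f1* were lower by 1.73-fold for the heparan sulfate proteoglycan *Sdc4* to 3.02-fold for *2210409E12Rik*. For all 24 genes the plate means of the groups did not overlap, while single wells did. These genes were picked from the called ones, which had the same direction on each plate. Separate plate means thus lay largely in the rule and are no further result. For the increases, 19 to 49 comparison wells lay above the median of the Nodal/Lefty1 wells.

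**Figure D1:**
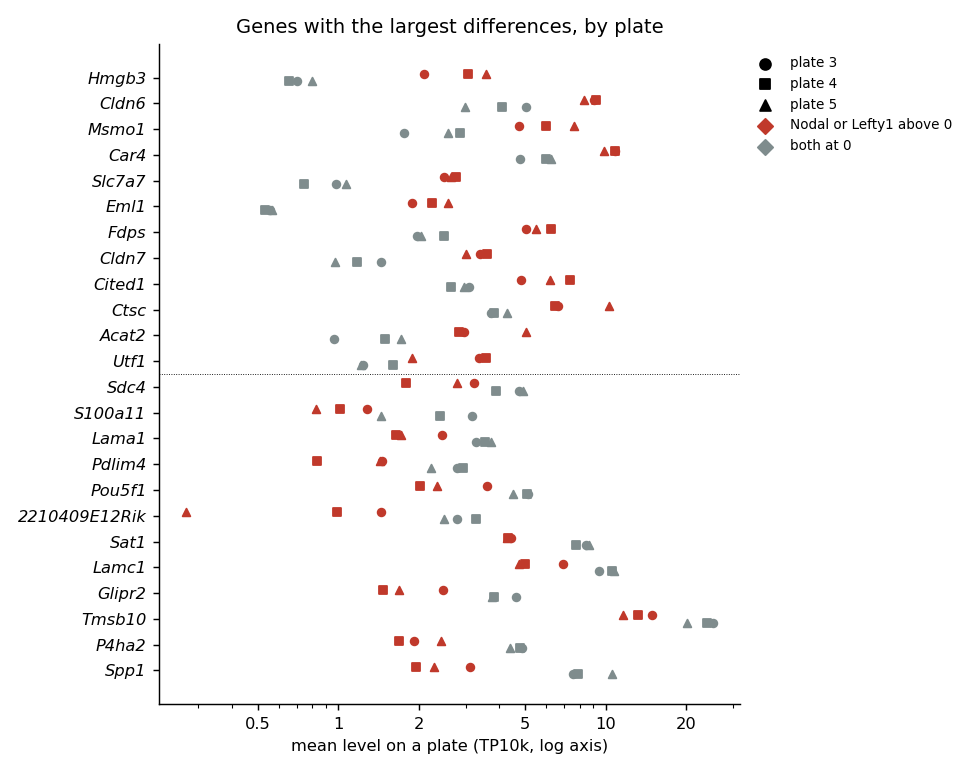
Mean level (TP10k, log axis) of the 12 genes with the largest increase (above the dotted line) and the 12 with the largest decrease in the 90 Nodal/Lefty1 wells (red) against the other selected wells (grey), with 1 symbol per plate. For each gene, the 3 red symbols lie on 1 side of the 3 grey ones, with Hmgb3 at 2.10 to 3.58 against 0.655 to 0.802. The genes were picked from those with the same direction on each plate, so this lies largely in the rule.

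Of the 9 listed secreted factors of the AVE other than *Lefty1*, *Dkk1* and *Sfrp1* reached 25% of wells in both groups, and both were called higher, as were 5.27% of all genes. *Fgf5*, *Sfrp5* and *Lefty2* reached that share only in the Nodal/Lefty1 wells, where they were high, and are given as values. *Fgf5* (chromosome 5, 98254184 to 98277030), a ligand better known from primed epiblast, averaged 0.173, 0.472 and 0.307 TP10k on plates 3, 4 and 5, against 0.0103, 0.0457 and 0.0396. It was found in 31 of 90 Nodal/Lefty1 wells (34.4%, 95% CI 24.7% to 45.2%) and 14 of the others (6.25%, 3.46% to 10.3%), beside 2.08% of outside wells. Most wells of both groups thus had none, and the highest single values, 2.42 and 3.09 TP10k, overlapped.

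The Wnt inhibitors on this list were *Dkk1*, *Sfrp1* and *Sfrp5*. *Dkk1* was found in most wells of both groups, and averaged 1.19, 0.889 and 0.672 TP10k on the plates against 0.699, 0.398 and 0.526. *Sfrp1* was found in 61.1% of the Nodal/Lefty1 wells (95% CI 50.3% to 71.2%) and 26.8% of the others (21.1% to 33.1%), at 0.212 against 0.0616 TP10k. *Sfrp5*, at 0.338 against 0.0536 TP10k, was found in 25.6% and 5.36% and in no outside well. Wells 9 to 16 alone held it too rarely for a comparison. There *Dkk1* and *Sfrp1* were still called higher, as were 4.64% of all genes. *Fgf5* and *Lefty2* were called there as well, but again passed only through the Nodal/Lefty1 wells and lend this no weight. *Lefty2*, a near-identical copy of *Lefty1* between which reads can be split, averaged 0.843 against 0.0496 TP10k and is uncertain for that reason. It was found in 12 of the 37 wells with *Nodal* alone (32.4%, 95% CI 18.01% to 49.8%) and in 6 comparison wells (2.68%, 0.989% to 5.74%). *Cer1*, *Bmp2*, *Shisa2* and *Fgf8* were found in under 25% of wells of both groups. *Fgf8* was above 0 in 4 of 90 Nodal/Lefty1 wells and in no comparison well.

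AVE transcription factors differed less. Of 10 listed, 5 were found in enough wells and 1 was called higher, against 5.27% of all genes. This was *Eomes*, at 0.129 against 0.0637 TP10k, which passed only through the Nodal/Lefty1 wells. Its values do not tell the transgene of the 5-Factor line from the endogenous gene. *Eomes* was found in 55.7% of the outside wells. *Hhex* averaged 0.397 against 0.284 TP10k and did not reach 1.5-fold, and *Hesx1*, *Foxa2* and *Sox17* stood at 0.915 against 0.798, 0.393 against 0.432 and 1.39 against 1.79. *Lhx1*, which acts in AVE formation, was found too rarely to be called. It was above 0 in 20 of 90 Nodal/Lefty1 wells (22.2%, 95% CI 14.1% to 32.2%) and 15 of the others (6.70%, 3.80% to 10.8%), in 0.595% of outside wells, and averaged 0.151 against 0.0182 TP10k. Its plate means were 0.110, 0.274 and 0.0585 against 0.0114, 0.0225 and 0.0210.

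Of the receptors and transducers of Nodal, 11 of 15 were compared, and most did not meet the rule. Of the 11, 1 was called higher and 1 lower, against 5.27% and 5.45% of all genes. *Drap1*, a repressor that restrains Nodal signalling through FoxH1, was called higher at 1.44 against 0.742 TP10k, and *Acvr1b*, a type I activin receptor, lower at 0.0501 against 0.112. *Foxh1* itself averaged 1.10 against 0.784 TP10k, with 1.29, 1.17 and 0.776 on the plates against 0.873, 0.700 and 0.781. Among genes known to respond to Nodal, *Lefty2* and *Eomes* were called higher, as given above, and *Foxa2*, *Skil* and *Smad7* were not called. Of the other ligands and processing enzymes, *Fst*, which encodes the activin-binding protein follistatin, was lower at 0.0502 against 0.312 TP10k and was found in 6 of 90 wells against 61 of the others (6.67% and 27.2%), so that it passed only through the latter. The convertase *Pcsk6* was lower as well, though not in wells 9 to 16 alone, at 0.0614 against 0.103 TP10k, and *Furin* and *Bambi* were not called.

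Most genes of cholesterol synthesis were higher. Of 23 genes in the table, all were found in enough wells and 19 were called higher, against 5.27% of all genes, and none lower. All 23 had a positive difference, with a median of 0.24. *Fdps* (chromosome 3, 89093588 to 89101959), which makes farnesyl diphosphate, averaged 5.04, 6.25 and 5.50 TP10k on plates 3, 4 and 5 in the Nodal/Lefty1 wells and 1.97, 2.48 and 2.04 in the others. Its wells ran from 0 through 3.39 to 28.03 against 0, 1.12 and 17.7, a 2.58-fold difference of the means. *Msmo1*, a methylsterol oxidase, averaged 4.75, 5.97 and 7.60 TP10k against 1.77, 2.85 and 2.58. *Mvd*, which makes isopentenyl diphosphate, stood at 2.02 against 0.612, and *Tm7sf2*, a sterol reductase, at 0.997 against 0.226 TP10k. *Tm7sf2* alone of the 19 passed only through the Nodal/Lefty1 wells. The 4 genes not called were *Hsd17b7*, *Insig1*, *Stard4* and *Srebf2*, and *Srebf2*, the transcription factor that drives the pathway, averaged 0.508 against 0.392 TP10k. Of its regulators, *Scap*, *Insig2*, *Srebf1*, *Mbtps1* and *Nr1h2* were not called (*Scap* was, in wells 9 to 16 alone), and *Mylip*, a ubiquitin ligase, was called higher at 0.159 against 0.0652 TP10k, having passed only through the Nodal/Lefty1 wells.

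Summed over the 23 genes, the level per well was 24.9 TP10k in the median of the Nodal/Lefty1 wells and 12.5 in the others. The plates gave medians of 24.3, 27.5 and 22.04 against 12.5, 13.3 and 11.4. The groups overlapped, with ranges of 4.82 to 158.8 and 2.99 to 96.9, and 81.1% of the Nodal/Lefty1 wells lay above the median of the others. In wells 17 to 24 the 14 Nodal/Lefty1 wells had a median of 50.6 TP10k, and the 3 comparison wells held 25.4, 28.8 and 86.6. In wells 9 to 16 alone the medians were 18.03 and 12.4 TP10k, and 78.9% of the Nodal/Lefty1 wells lay above that of the others. There 14 of 23 genes were called higher, *Tm7sf2* among them, against 4.64% of all genes, with a median difference of 0.20. Whether any of these 14 passed there only through 1 group was not examined. The pathway was not low elsewhere, since wells 1 to 8 had a median of 21.8 and outside wells one of 20.9 TP10k, and the comparison wells were thus below both. The Nodal/Lefty1 wells of all positions, at 24.9, lay above both, but those of wells 9 to 16, at 18.03, lay below both.

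The promoters of these genes were inspected because the genes differed together. Windows of 300 bases, 250 before and 50 after the annotated start (RefSeq, GRCm38.p6), were at hand for 16 of the 23 genes. The letters CCAAT, on either strand, stood in 15 of these 16 windows (all but *Acat2*), against 37.4% of all 32851 windows and 41.1% of the 27025 genes with a window. They stood in 8 of 12 windows of the parietal endoderm list described below, in 3 of 6 of fatty acid genes and in 1 of 5 of secreted AVE factors. TCACNCCAC, a form of the sterol regulatory element, stood in 0 of 16, against 1.24% of all windows, TGTNNATT, a FoxH1 element, in 4 of 16 against 12.2%, and CAGAC, a Smad element, in 9 of 16 against 49.6%. These are matches of letters and are not evidence of binding. The 250 bases before the start of the 3 genes with the largest difference for which a window was at hand are shown 5′ to 3′ on the gene's strand, with CCAAT or its reverse complement in capitals. They lie at chr8:64733579-64733828 for *Msmo1*, chr17:12960726-12960975 for *Acat2* and chr8:122443423-122443672 for *Mvd*, all on the minus strand. *Msmo1* holds 3 matches, which begin 160, 96 and 55 bases before the start, *Mvd* holds 2, at 60 and 27, and *Acat2* none.
Msmo1: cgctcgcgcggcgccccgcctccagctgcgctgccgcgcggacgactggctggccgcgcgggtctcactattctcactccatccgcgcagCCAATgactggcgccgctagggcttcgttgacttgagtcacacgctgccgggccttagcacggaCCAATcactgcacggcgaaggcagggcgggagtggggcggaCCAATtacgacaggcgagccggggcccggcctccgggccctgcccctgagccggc
Acat2: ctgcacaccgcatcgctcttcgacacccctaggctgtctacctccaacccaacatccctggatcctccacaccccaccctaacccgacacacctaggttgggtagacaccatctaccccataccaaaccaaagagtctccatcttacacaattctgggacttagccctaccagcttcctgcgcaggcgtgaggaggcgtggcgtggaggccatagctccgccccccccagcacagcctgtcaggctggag
Mvd: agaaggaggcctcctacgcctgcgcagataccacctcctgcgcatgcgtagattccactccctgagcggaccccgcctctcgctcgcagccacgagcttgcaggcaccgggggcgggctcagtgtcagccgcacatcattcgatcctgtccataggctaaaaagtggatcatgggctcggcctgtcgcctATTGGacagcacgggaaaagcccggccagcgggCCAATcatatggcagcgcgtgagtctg

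**Figure D2:**
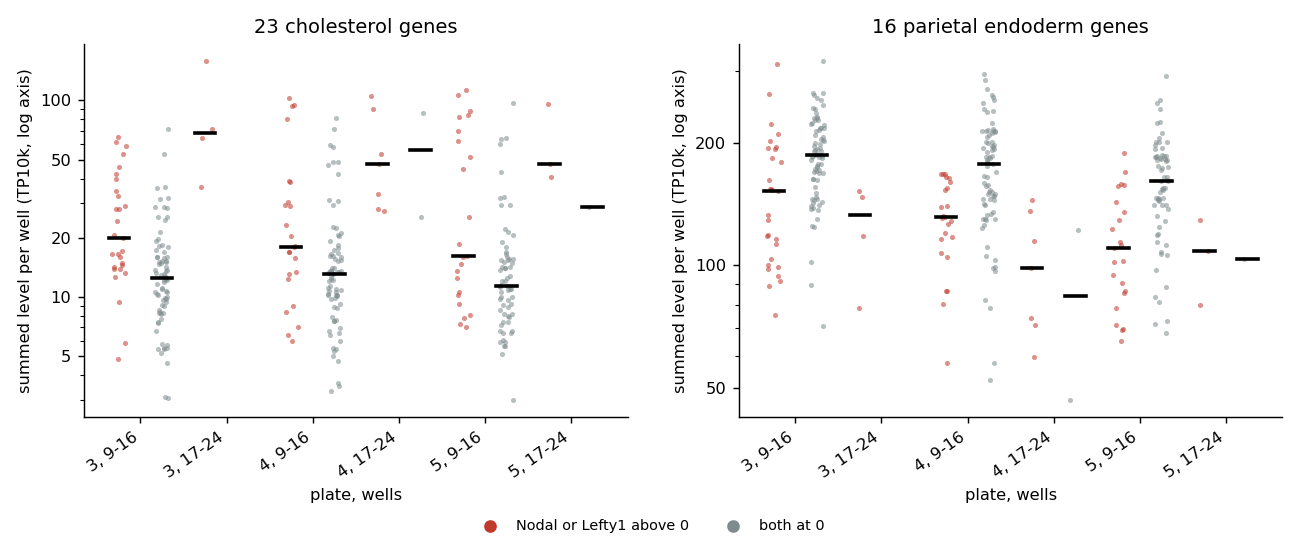
Summed level per well (TP10k, log axis) of 23 cholesterol genes (left) and 16 parietal endoderm genes (right), by plate and by wells 9 to 16 or 17 to 24, in Nodal/Lefty1 wells (red) and the other selected wells (grey), with bars at the medians. On each plate the red median of wells 9 to 16 lies above the grey one for cholesterol genes and below it for parietal endoderm genes, and the points overlap. Plate 3 has no comparison well in wells 17 to 24.

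Fatty acid synthesis went the same way with smaller differences. Of 8 genes compared, 6 were called higher, *Fasn*, *Scd1*, *Scd2*, *Elovl6*, *Fads1* and *Acss2*, and *Acly* and *Acaca* were not, against 5.27% of all genes. *Acss2* passed only through the Nodal/Lefty1 wells. *Fasn*, the fatty acid synthase, averaged 3.80, 4.88 and 5.12 TP10k on the plates against 2.39, 2.46 and 2.46. Wells 9 to 16 alone gave 4 of the 8, *Acss2* among them, against 4.64% of all genes. Whether any of these 4 passed there only through 1 group was not examined. Across the Nodal/Lefty1 wells the summed levels of both pathways followed each other (Pearson's r = 0.845 and Spearman's rho = 0.846 over 90 wells), and less so across the others (0.516 and 0.454). All wells share the pool, and both sums are parts of the same total. The cholesterol sum did not follow the number of genes per well, with a rho of 0.01 and 0.03 in the groups. With each Nodal/Lefty1 well matched to 1 comparison well of the same plate and nearest number of genes, 20 of 23 cholesterol genes were called higher. In that setting 6.35% of all genes were.

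Epithelial genes were higher in part. Of 10 compared, 5 were called higher, against 5.27% of all genes, and none lower. Beside *Cldn6* and *Cldn7* these were *Epcam*, an adhesion protein, at 1.002 against 0.621 TP10k, *Ocln*, which encodes occludin, at 0.461 against 0.191, and *Podxl*, an apical sialomucin, at 0.971 against 0.633. All but *Podxl* were also called in wells 9 to 16 alone. The keratins did not meet the rule, *Krt8* at 1.74 against 2.18 TP10k and *Krt18* at 1.29 against 0.889, nor did E-cadherin (*Cdh1*) at 0.687 against 0.624. Among 6 compared carbonic anhydrases, aquaporins and sodium pump genes, *Car4* was called higher and *Car8* lower, against 5.27% and 5.45% of all genes. *Car8* was not called in wells 9 to 16 alone. *Aqp8*, a water channel, averaged 3.44 against 4.01 TP10k and was not called.

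Among genes of functions typical of VE few met the rule, but the secreted carriers leaned higher as a list. Of 8 endocytic genes compared, 1 was called higher, against 5.27% of all genes. This was *Soat2*, which esterifies cholesterol, at 1.59 against 0.659 TP10k. *Lrp2* and *Dab2* were not called, at 2.24 against 1.68 and 10.3 against 7.73. Of 5 secreted carrier proteins compared, 2 were called higher, against 5.27% of all genes. These were *Spink1* and *Apob*, the latter having passed only through the Nodal/Lefty1 wells. All 5 had a positive difference, beside 4492 of all 8251 genes, and their median difference was 0.25. In wells 9 to 16 alone 3 of 4 compared carriers had a positive difference, and the median was 0.17. *Apob*, the core protein of lipoproteins, was found in 25 of 90 Nodal/Lefty1 wells (27.8%, 95% CI 18.9% to 38.2%) and 12 of the others (5.36%, 2.80% to 9.17%), with plate means of 0.0843, 0.947 and 1.20 TP10k, so that plate 3 was far below the others. *Apoe* was abundant in both groups, at 69.1 against 47.5 TP10k, and fell short of 1.5-fold. Of 10 endoderm transcription factors, 2 were called higher, against 5.27% of all genes. These were *Hnf4a*, at 0.347 against 0.201 TP10k, and *Cited1*. Neither *Hnf4a* nor *Apob* was called in wells 9 to 16 alone. *Gata4* and *Gata6* averaged 2.41 against 3.06 and 0.644 against 0.854 TP10k, where the latter can hold transgene transcripts, and were not called.

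Parietal endoderm genes were lower. Of 14 compared, 8 were called lower, against 5.45% of all genes, and none higher. These were *Spp1*, *P4ha2*, *Tmsb10*, the laminin chains *Lamc1*, *Lama1* and *Lamb1*, the basement membrane protein *Nid1* and the hormone receptor *Pth1r*. The median difference was -0.27, and 13 of the 14 were negative, the exception being the proteoglycan *Srgn* at 33.2 against 28.7 TP10k. *Spp1*, *P4ha2* and *Tmsb10* joined the list with earlier results of these cells known, and without these 3 genes 5 of 11 were called lower. *Sparc*, the most abundant gene of this list, and the collagen chain *Col4a1* averaged 48 against 64.1 and 13.4 against 16.9 TP10k and fell short of 1.5-fold. Summed over all 16 genes of the list, the level per well had a median of 124.7 TP10k (57.5 to 311.9) in the Nodal/Lefty1 wells and 176.4 (46.7 to 318.02) in the others, and 147.4, 128.4 and 109.6 against 186.8, 174.98 and 161.4 on the plates. In wells 9 to 16 alone it was 128.9 against 177.8. There 6 of 14 compared genes were called lower, *Spp1*, *P4ha2* and *Tmsb10* among them, against 5.05% of all genes. Only 12.2% of the Nodal/Lefty1 wells lay above the median of the others.

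Wells with more cholesterol gene transcripts had fewer of the parietal list. Over the 90 Nodal/Lefty1 wells r was -0.435 (rho -0.466), and over the others -0.400 (rho -0.375), on ln-transformed sums that are parts of the same total. These are descriptions across wells of 1 pool.

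**Figure D3:**
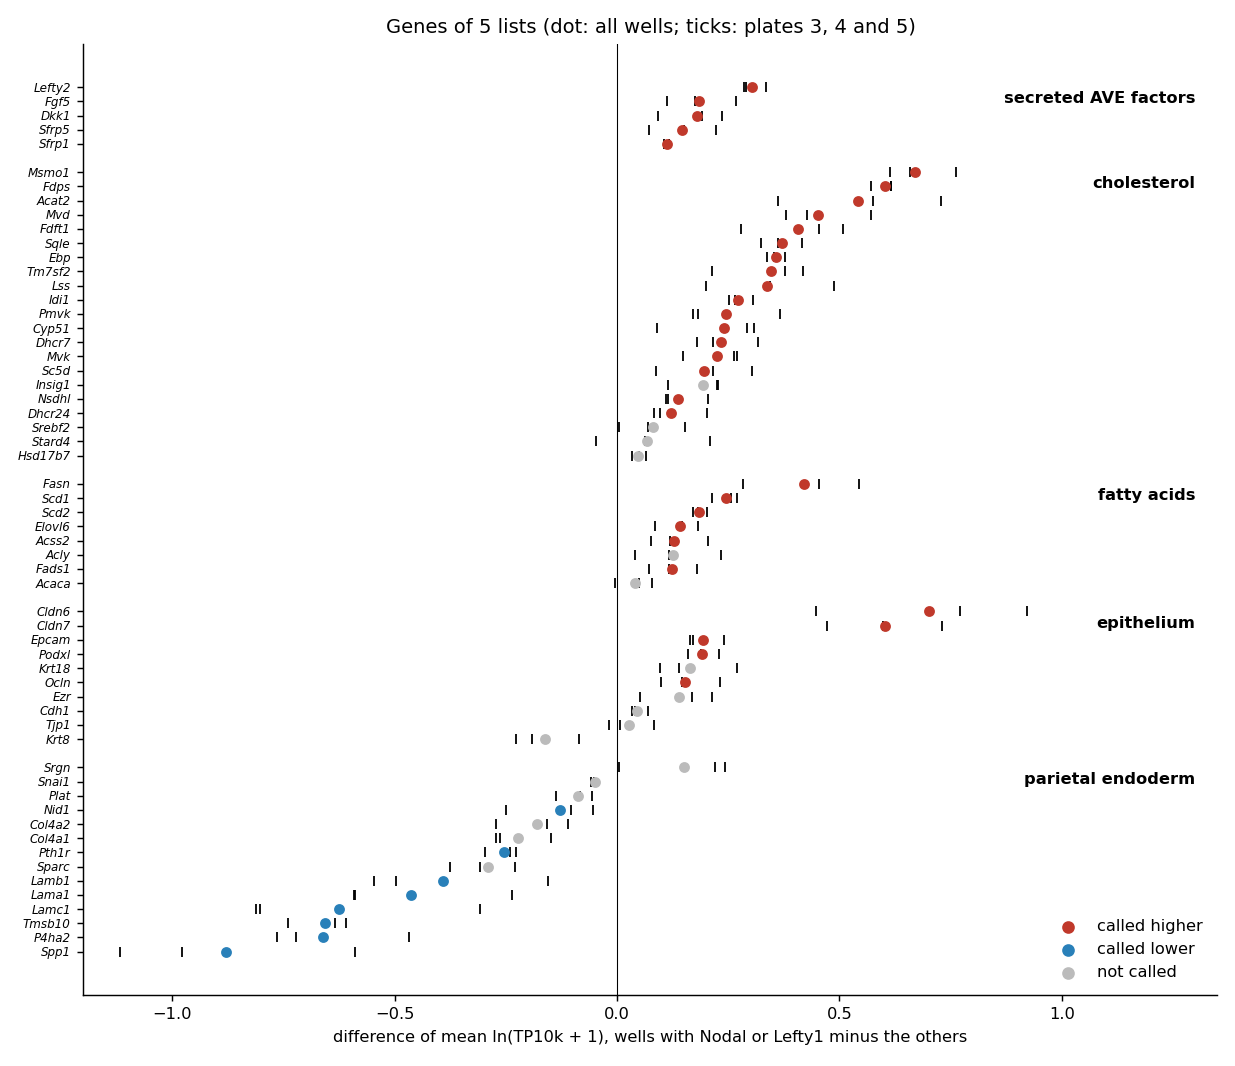
Difference of mean ln(TP10k + 1), 90 Nodal/Lefty1 wells minus the others, for the genes of 5 lists found in at least 25% of wells of either group. Dots give all wells, ticks the differences on plates 3, 4 and 5, and colour the call. Most cholesterol genes are called higher (2 of the 23 are not drawn), and of 14 parietal endoderm genes 8 are called lower. Of all genes, 5.27% are called higher and 5.45% lower.

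Signalling genes beyond Nodal differed in part. Of 12 compared genes of FGF signalling, 5 were called higher and 2 lower, against 5.27% and 5.45% of all genes. One of the 5 is *Fgf5*, which passed only through the Nodal/Lefty1 wells. The feedback inhibitors *Spry1* and *Spry4* and the ERK-responsive factors *Etv4* and *Etv5* were higher at low levels, *Etv4* at 0.439 against 0.279 TP10k, while *Spry2* was not called and *Dusp6* was found in too few wells. Neither *Etv4* nor *Etv5* was called in wells 9 to 16 alone. The ligand *Fgf3* was lower at 0.322 against 0.722 TP10k, and so was the receptor *Fgfr2* at 0.283 against 0.428, the latter not in wells 9 to 16 alone. Of 9 compared BMP genes, *Id2*, *Id3* and *Msx2*, which respond to BMP, were called lower, against 5.45% of all genes, and none higher. *Id3* averaged 0.602, 0.265 and 0.134 TP10k on the plates against 1.14, 1.12 and 0.621, and was found in 30% against 58.9% of wells. *Id1* fell short at 1.48 against 2.05 TP10k. Of 8 compared Wnt genes, 4 were called higher, against 5.27% of all genes, and none lower. Beside *Dkk1*, *Sfrp1* and *Sfrp5* this was the receptor *Lrp5*, at 0.0550 against 0.0335 TP10k but not in wells 9 to 16 alone. *Lrp5* and *Sfrp5* passed only through the Nodal/Lefty1 wells. *Axin2*, a target of Wnt signalling, was found in 15.6% and 19.2% of wells.

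Cycling genes did not differ by the rule. None of 13 S phase and 13 G2/M genes was called in either direction, with median differences of -0.06 and 0.01. A positive difference was seen in 2 of the S phase and 8 of the G2/M genes, beside 4492 of all 8251 genes. Most S phase genes thus leaned lower by small amounts. *Mki67* averaged 0.437 against 0.466 TP10k and *Top2a* 2.09 against 2.42. Of 5 compared G1 cyclins and inhibitors, 3 were called lower, against 5.45% of all genes. *Ccnd2*, a D-type cyclin that passed only through the comparison wells, was found in 12 of 90 Nodal/Lefty1 wells (13.3%, 95% CI 7.08% to 22.1%) and 97 of the others (43.3%, 36.7% to 50.1%), with plate means of 0.0670, 0.0591 and 0.0358 TP10k against 0.471, 0.506 and 0.578. *Ccnd3* averaged 1.18 against 2.14 and the CDK inhibitor *Cdkn1a* 0.546 against 0.893 TP10k. None of 8 stress genes was called.

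Of the 5 compared Epi genes, *Utf1* was called higher and *Pou5f1* lower, against 5.27% and 5.45% of all genes. *Pou5f1* averaged 3.61, 2.03 and 2.35 TP10k on plates 3, 4 and 5 in the Nodal/Lefty1 wells and 5.13, 5.08 and 4.50 in the others, beside 14.2 in wells 1 to 8 and 0.271 in outside wells. It was found in 78.9% (95% CI 69.01% to 86.8%) and 94.2% (90.3% to 96.9%) of wells. *Dppa5a*, the most abundant gene of that list, averaged 52.2 against 76.6 TP10k. *Nanog* was found in 24.4% and 23.2% of wells.

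The Nodal/Lefty1 wells were not alike. The median cholesterol sum was higher in wells with *Nodal* than in wells with *Lefty1* alone, but single wells overlapped. They ran from 4.82 to 47.4 TP10k with *Lefty1* alone, from 6.43 to 158.8 with *Nodal* alone and from 5.94 upward with both. These kinds of wells are cut on the genes of the selection, so their differences are descriptions only. Where found, *Nodal* had a median of 0.4402 TP10k, so wells with *Lefty1* alone were not shown to lack it. The median sum was 39.7 TP10k in the 34 wells with both genes, 27.5 in the 37 with *Nodal* alone and 10.6 in the 19 with *Lefty1* alone, against 12.5 in the wells with neither. Of wells with both, 94.1% lay above the median of the comparison wells, of those with *Nodal* alone 89.2% and of those with *Lefty1* alone 42.1%. On plates 3, 4 and 5 the medians were 27.9, 36.1 and 47.5 with both, 28.9, 23.9 and 43.7 with *Nodal* alone and 15.9, 8.98 and 10.2 with *Lefty1* alone. In wells 9 to 16 they were 33.3, 20.5 and 10.4 TP10k. *Fdps* averaged 7.03, 6.37 and 1.49 TP10k in these 3 kinds of wells, and *Fasn* 4.75, 5.51 and 2.33. Of the 23 cholesterol genes, 21, 19 and 1 had a mean at least 1.5 times that of the comparison wells, where 10.6%, 8.23% and 11.1% of all genes did without regard to plates. Depth was alike, with medians of 5416.5, 5391 and 5524 genes.

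The parietal sum had a median of 102.9 TP10k with both genes, 129.4 with *Nodal* alone and 157.7 with *Lefty1* alone, against 176.4 with neither. For fatty acid genes these medians were 8.62, 7.85 and 4.59 against 4.85 TP10k. *Hmgb3* averaged 4.24, 2.35 and 1.34 TP10k and *Car4* 11.95, 12.2 and 4.88, where the comparison wells had 0.715 and 5.66. *Fgf5* was found in 50%, 32.4% and 10.5% of these wells. With 19 wells, of which 5 to 7 lay on each plate, the values of the wells with *Lefty1* alone are the least precise, and their ranges overlapped with the others.

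**Figure D4:**
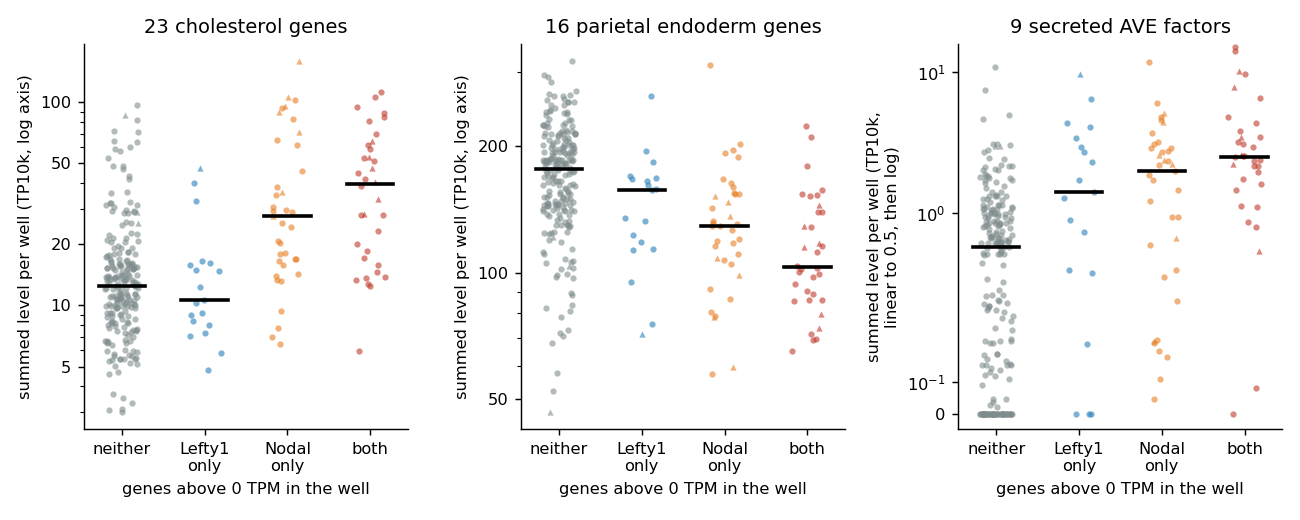
Summed level per well (TP10k) of 23 cholesterol genes, 16 parietal endoderm genes and 9 secreted AVE factors (without Lefty1 but with Lefty2, between which and Lefty1 reads can be split), in the selected wells with neither gene, Lefty1 only (19), Nodal only (37) and both (34). Circles are wells 9 to 16, triangles wells 17 to 24, and bars the medians. For cholesterol genes the median of Lefty1-only wells, 10.6, lies near that of wells with neither gene, 12.5, and those of Nodal only and both lie at 27.5 and 39.7.

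The 2D culture of induced extraembryonic endoderm (iXEN) cells, made from iGATA6-mCherry ESCs in XEN medium with DOX, allowed the same split in cells outside the embryoids. Of 140 iXEN wells on 1 plate with at least 2500 genes and both *Amn* and *Cubn*, 31 had *Nodal* (23 wells) or *Lefty1* (10 wells), both being present in 2. In the others, both genes were at 0. The levels were lower than in the embryoids, with means over the 31 wells of 0.163 TP10k for *Nodal* and 0.0543 for *Lefty1*. The median number of genes was 8810 and 8692. With 1 plate the call rests on the 1.5-fold rule alone and called 8.9% of 10727 genes higher and 7.24% lower.

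The parietal genes leaned the same way in both cultures. All 15 compared were lower in the iXEN wells with *Nodal* or *Lefty1*, beside 47.6% of all genes. By 1.5-fold 4 of them were lower, *Nid1*, *Plat*, *P4ha2* and *Spp1*, against 7.24% of all genes. The median difference of the 15 was -0.23. Their summed level was 152.3 TP10k in the median against 180.4. All 11 compared epithelial genes had a positive difference, beside 52.4% of all genes, with none reaching 1.5-fold. Secreted carriers were higher in all 10 compared, beside 52.4% of all genes. By 1.5-fold 6 of them were higher, against 8.9% of all genes. Among these were *Apob* at 0.905 against 0.137 TP10k and *Ttr*, the carrier transthyretin, at 3.39 against 1.67. For the 4 parietal genes and 6 carriers, whether any passed only through 1 group was not examined. Their counts are therefore given as values only.

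Of the 23 cholesterol genes 2 were called higher in iXEN, *Fdps* at 2.40 against 1.499 TP10k and *Fdft1*, against 8.9% of all genes, with 16 positive differences, a median difference of 0.03, and the summed level had medians of 13.5 and 12.7 TP10k. Of 3 secreted AVE factors compared, *Bmp2* was called higher in iXEN, at 0.0538 against 0.0199 TP10k and having passed only through the wells with *Nodal* or *Lefty1*, and *Dkk1* and *Sfrp5* lower, *Dkk1* at 0.277 against 0.459 TP10k, and *Fgf5* stood at 0.0250 against 0.0109. Of the genes called higher in the embryoids that could be compared in iXEN, 68.5% had a higher mean in the iXEN wells with *Nodal* or *Lefty1*, beside 52.4% of all compared genes. Of those called lower, 60.6% had a lower mean, beside 47.6%. The calls themselves overlapped in 70 higher genes, 16.1% of the embryoid list and 7.33% of the iXEN list, and in 67 lower genes, 14.9% and 8.62%. Each culture is 1 sample, and culture, plate and depth differ together and cannot be told apart.

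**Figure D5:**
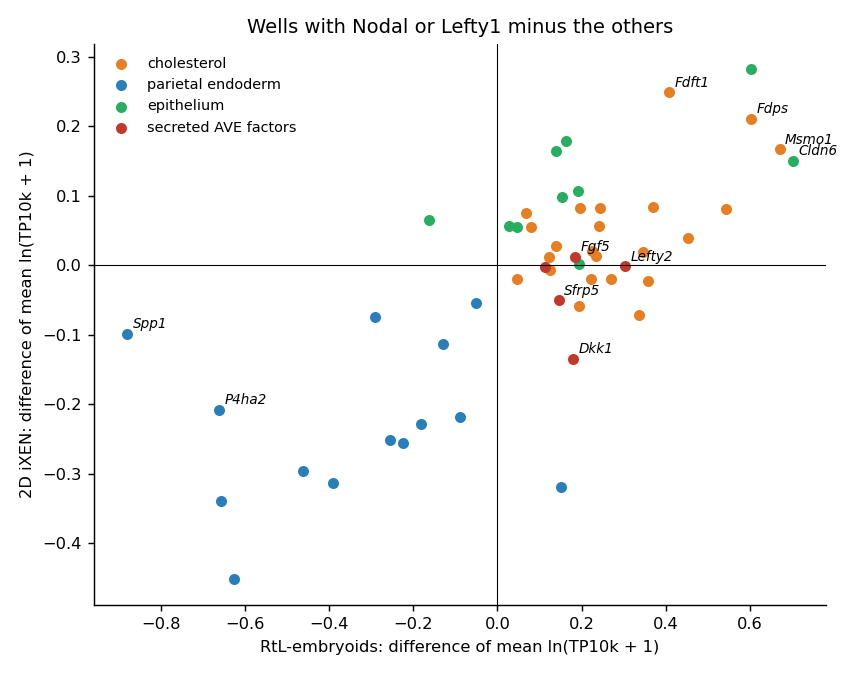
Difference of mean ln(TP10k + 1) between wells with Nodal or Lefty1 and the others, in RtL-embryoids (horizontal, 90 wells with either gene) and in 2D iXEN (vertical, 31 such wells), for genes of 4 lists compared in the embryoids. Parietal endoderm genes lie below 0 in iXEN, epithelial genes above 0, and cholesterol genes between -0.07 and 0.25, while all cholesterol genes lie right of 0 in the embryoids.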

How the data were processed

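Single cells of RtL-embryoids and of 2D iXEN cells were used. The authors sequenced them by SMART-seq2 without molecular identifiers. Per the labels, reads passed through bcl2fastq 2.20, kallisto and Seurat, and per the study's methods transcripts were those of Gencode vM16 on GRCm38, with mitochondrial, ribosomal and pseudogenes removed. They deposited TPM for 20999 genes, without read numbers, so counting depth is unknown. Over these genes, TPM summed to 108692 to 757808 per selected well.

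Wells were scaled to 10000 and compared as means of TP10k and of ln(TP10k + 1), with a pseudocount of 1, using Python 3.11.15, numpy 2.4.6, scipy 1.17.1 and pandas 2.3.3. The comparison was tried on the real comparison wells, with known changes put into some genes of a random part of them. Those changes were larger, and those genes more widely found, than the rule asks. The trial thus says little about calls near the limits of the rule. *Nodal*, *Lefty1*, *Amn* and *Cubn* were left out of the comparison. Named are these genes, *Fdps*, *Car4*, *Fgf5*, genes of 24 lists, and the 12 called genes that differed most in either direction. The members and lists were chosen with earlier results of these data known. Wells received 1 sorted cell each, and doublets were not searched for. Alternatives concerned the cut-offs, plates, wells, weighting and scale. The other 2D cultures were not used here. Some genes of the lists are counted but not reported singly here.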

Additional observations from a re-analysis of the deposited data

How the results depend on the processing

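The wells come from 1 pool, so an alternative shows whether a value held, not whether it would recur. The share of genes called depended on the rule. With no minimum share of wells, 4.82% of 17089 genes were higher and 8.31% lower, with a minimum of 10% 6.52% and 7.30% of 10307, and with a 2-fold difference of the means 1.94% and 1.56% of 8251. Leaving out 1 plate, which leaves agreement to be met on only 2, gave 9.42% lower without plate 3, 8.46% lower without plate 4 and 7.87% higher without plate 5. Of the cholesterol genes 12 were higher by 2-fold, and of the parietal endoderm genes 2 were lower, *Spp1* and *P4ha2*, which both joined that list with earlier results known. The median difference of the cholesterol genes, 0.24, became 0.31 with the wells holding *Nodal*, 0.20 with those holding *Lefty1*, 0.20 in wells 9 to 16, 0.27 without plate 4 and 0.29 without wells of 3 or more Epi markers. The difference in cholesterol medians between wells with *Nodal* and wells with *Lefty1* alone, 18.4 TP10k, ranged from 14.4 to 22.1. In iXEN the 16.1% called became 30.05% without wells of 3 or more Epi markers, 5.08% by 2-fold, 24.2% with a minimum of 10% and 43.5% with none. The causes were not tested. For 82 named genes under 13 alternatives, 92.2% of the differences moved by less than the spread between plates (in log2(TPM + 1), only the sign was compared), 83 moved by more, and 0 changed direction. These 82 genes are the called ones among those named, so their direction already agreed on plates 3, 4 and 5. The cut of 1 TPM took the same wells as the main rule. A kept direction was therefore largely fixed in advance and lends no support. Wells 17 to 24 alone gave no value, having 3 comparison wells. No paired analysis was possible because the numbers given to wells follow accession order and name wells of 1 pool without pairing them. Matching each Nodal/Lefty1 well to a comparison well on plate and number of genes was possible. It gave 20 cholesterol genes called higher, against 6.35% of all genes.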
